A study of Rattus norvegicus with 8 samples.

Results

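The mid-day pineal gland of the rat was compared between 2 older and 2 younger ages, to see which transcripts gain or lose their daytime level as the gland matures. The series holds 8 whole-transcriptome libraries of Sprague-Dawley pineal glands, 1 for each combination of 4 ages and 2 times of day, and the 4 mid-day libraries (ZT7, 7 h after lights on in a cycle of 14 h light and 10 h dark) form the comparison. The older group was the P20 library (postnatal day 20, a pool of 13 animals) and the P40 library (postnatal day 40, a pool of 3). The younger group was the E21 library (embryonic day 21, a pool of 13) and the P5 library (postnatal day 5, a pool of 17). The labels name no genotype or treatment other than the lighting cycle, which all groups shared. The mid-night libraries of the same ages (ZT19, pools of 15, 19, 10 and 3 animals from E21 to P40) served as the other time of day. Of 16932 transcripts deposited, 9960 reached at least 1 FPKM in at least 2 of the 8 libraries and were tested, and no measured difference between ages entered that choice.

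A level is given in FPKM, fragments per kilobase of transcript and per unit of library size. A change is the mean log2(FPKM + 1) of P20 and P40 minus that of E21 and P5, with its standard error (SE) from limma, 2 libraries a group. On this scale a change of 1 is a 2-fold difference in FPKM + 1, which understates the change of transcripts with low levels. The 2 libraries of a group differ in age, so the spread a test sees is that between pools of different ages and not between animals of one age. In these whole-gland pools, fewer cells of a type and less RNA per cell cannot be told apart.

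The pineal gland makes melatonin from tryptophan, with tryptophan hydroxylase (Tph1) opening the pathway, Aanat acetylating serotonin and Asmt adding the final methyl group. At night, sympathetic fibres release noradrenaline onto pinealocytes, the melatonin-making cells, and cyclic AMP then drives Aanat and many other genes. Daytime is the silent phase of that drive. Pinealocytes are related to retinal photoreceptors, and in rodents they keep many photoreceptor genes while the sympathetic innervation forms around and after birth.

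The 17 pinealocyte markers summed to 1241, 6930, 7236 and 5730 FPKM at mid-day in E21, P5, P20 and P40. At E21 mid-day, choroid plexus markers summed to 1383 and erythroid markers to 12280, both above the pinealocyte sum. At P5, P20 and P40 the pinealocyte sum was above both. The median mid-day change of the pinealocyte markers was 1.11, and 0.03 without the E21 library. Between 8844 (P40) and 9263 (E21) transcripts reached 1 FPKM in a mid-day library. Relative depth was estimated from the low end of nonzero levels among short olfactory receptor transcripts, scaled by span. These numbered 13, 26, 24 and 25 in E21, P5, P20 and P40. The estimate was 0.53, 0.98, 0.42 and 0.91 of the deepest library. By this rough measure low levels are least exact at E21 and P20. The younger ages differed more than the older ones: 13.6% of tested transcripts differed at least 2-fold between E21 and P5 at mid-day, against 2.32% between P20 and P40. The E21 mid-day library also stood apart from its mid-night partner for short transcripts, with 11.7% of the 367 spanning under 2 kb at least 2-fold apart against 1.66% of longer ones. Rps16, a ribosomal protein of the small subunit, read 891 FPKM in the E21 mid-day library and 136 in the E21 mid-night one. The E21 mid-night level is therefore given beside some of the results that rest on short transcripts.

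At mid-day the older glands carried more RNA for antigen presentation than either younger library, and less for cell division, immature neurons and collagen matrix. Phototransduction, granin and synaptic vesicle genes were higher mainly against E21, with median steps of 0.00, 0.15 and 0.19 from P5 to P20. Both older libraries stood at least 2-fold above both younger ones for 100 of the 9960 transcripts (1.0%) and at least 2-fold below for 213 (2.14%). Without regard to size, the groups did not overlap for 2087 transcripts higher at the older ages (21.0%) and 3600 lower (36.1%). The planned limma test on the 4 mid-day libraries called 0 of 9960 transcripts at adjusted p under 0.05 (0%, Benjamini-Hochberg). Its smallest adjusted p was 0.0921, shared by Mdk and Dpt, and 1802 transcripts had an unadjusted p under 0.05, 612 of them higher and 1190 lower. For a single transcript, 2 libraries against 2 cannot give an exact two-sided permutation p below 0.333.

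A second limma fit, planned as an alternative, used all 8 libraries with each age as a block and a time-of-day effect for each stage. Its spread comes from how far the day-night difference varies between ages of a stage, so its p-values speak of these 4 ages only. Here 1070 transcripts (10.7%) were higher and 1814 (18.2%) lower in the older mid-day glands at adjusted p under 0.05. Below, "passed with the ages fixed" refers to this fit, and "higher" or "lower" without it describes levels that carry no call. The balance between the directions depended on scaling: after quantile normalization the same fit gave 1402 higher and 1393 lower, and with each library's median set equal 1473 and 1376. The counts 2-fold apart moved likewise, to 138 and 160 with quantile normalization and to 130 and 169 with centring. They were 205 and 533 with a pseudocount of 0.1, 35 and 40 with one of 5, and 118 and 327, 712 and 1072, 293 and 394, or 150 and 272 without E21, P5, P20 or P40. The median change over all tested transcripts was -0.12 with the deposited FPKM and -0.01 after quantile normalization. Single libraries weighed heavily. With the ages fixed, leaving out E21, P5, P20 or P40 at mid-day left 324, 461, 358 or 489 transcripts higher and 453, 1046, 655 or 538 lower.

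Among the largest daytime gains, 12 transcripts were at least 2-fold above every younger library with 5 FPKM or more at both older ages. They were chosen by size because none passed the planned test. Values listed together are FPKM at E21, P5, P20 and P40 in that order. A2m, the plasma protease inhibitor alpha-2-macroglobulin (chr4:158103710-158153423 in rn4), read 1.52, 11.2, 105 and 156, a change of 4.54 (SE 0.74). St8sia3, an enzyme that adds sialic acid to glycans (chr18:60467772-60474264), read 0.378, 0.770, 13.1 and 45.1, a change of 4.03 (SE 0.56). Rgs7, a brake on G protein signalling, read 0.456, 2.65, 30.5 and 39.3, a change of 3.95 (SE 0.46). In all of them both older libraries lay far above P5, with P40 the highest. Alox15, a lipoxygenase acting on arachidonic acid, read 2.97, 107, 256 and 336, a change of 3.83 (SE 1.46). Eef1a2, the elongation factor form of neurons and muscle, read 0.875, 22.9, 52.4 and 49.3, a change of 2.95 (SE 1.12). For this pair most of the distance was covered by P5, and the wide SE is that step. Dpt, the matrix protein dermatopontin, was flat between E21 and P5 at 0.883 and 1.18 and stood at 16.2 and 20.8 in P20 and P40, a change of 3.26 (SE 0.24). Apoe, the lipid carrier of glia, read 35.1, 103, 612 and 454 and was the most abundant of the group.

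The other gains spanned several functions. Car3, a carbonic anhydrase, read 0.361, 7.83, 45.5 and 36.5. Guca1a, the calcium sensor that activates retinal guanylate cyclase, read 0.824, 8.78, 46.5 and 32.1. Lmod1, the actin nucleator leiomodin, read 0.345, 8.08, 31.1 and 27.5. In these, P20 was above P40. Hspb1, a small heat shock protein, read 0.879, 4.84, 38.7 and 18.8. The remaining gain, LOC100188932, is described in the deposited table as a subunit of the oligosaccharyltransferase and read 4.76, 28.2, 94.6 and 199, while its E21 mid-night level was 19.7. It is 1 of 2 deposited transcripts of that symbol, so its value is uncertain. Its span is under 2 kb, as is that of Hspb1, whose E21 mid-night level was 1.29. Over the 12 gains the planned test gave adjusted p from 0.0921 to 0.261, and its alternatives (16 for most genes) from 7.05e-05 to 0.900. With the ages fixed, all 12 passed, at adjusted p from 7.05e-05 (A2m) to 0.00472 (Hspb1). Over 18 alternatives of that fit the range was 1.03e-05 to 0.0780, with Hspb1 the exception that missed, passing in 14 of 17.

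The 12 losses named were the largest among transcripts at least 2-fold below with 5 FPKM or more in both younger libraries. They were led by H19, an imprinted RNA without a protein product that is abundant in fetal tissue (chr1:202822924-202825601 in rn4). It read 277, 23.4, 2.27 and 0.362 at E21, P5, P20 and P40, a change of -5.29 (SE 1.13). Nt5dc2, a member of the nucleotidase domain family, read 85.9, 15.5, 1.41 and 1.0, a change of -4.11 (SE 0.75). Every step was downward in both. Tubb2b, the beta-tubulin of young neurons, read 42.5, 11.8, 0.553 and 0.712, a change of -3.85 (SE 0.57). Top2a, the topoisomerase of dividing cells, read 39.1, 7.38, 0.440 and 0.423, a change of -3.68 (SE 0.71). Cks2, which binds cyclin-dependent kinases, read 31.0, 6.22, 0.641 and 0.564, a change of -3.25 (SE 0.68). All 3 were under 1 FPKM at both older ages. Pmel, which builds the fibrils of pigment granules, went from 18.7 and 5.15 to 0.0839 and 0.0931, a change of -3.34 (SE 0.55).

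Matrix and epithelial transcripts kept a trace in the older glands. Postn, the matrix protein periostin, read 177, 66.7, 10.1 and 7.75, a change of -3.48 (SE 0.49). Krt15, an epithelial keratin, read 132, 42.1, 6.29 and 5.62, a change of -3.44 (SE 0.53). Mdk, the growth factor midkine, differed by less than 1 FPKM between E21 and P5, at 44.9 and 45.4. It read 4.36 and 3.14 in P20 and P40, a change of -3.29 (SE 0.24). Its span is under 2 kb, and it read 72.4 and 87.1 at E21 and P5 mid-night. Aanat read 13.5, 153, 6.21 and 1.72, so its P5 mid-day level was far above the other 3, a change of -3.41 (SE 1.12). Tpm1, a tropomyosin, read 21.7, 13.6, 2.12 and 0 for 1 of its deposited transcripts. Another went the other way, at 0, 2.23, 3.79 and 5.51, a change of 1.64. The loss is thus that of 1 transcript and not of the gene, and how fragments were shared among them makes these values uncertain. Rps16 read 891, 97.6, 40.9 and 20.2. Its E21 mid-night level of 136 gave a smaller change of -1.84 at mid-night than the -3.31 (SE 1.05) at mid-day. In the planned test these 12 losses had adjusted p from 0.0921 (Mdk) to 0.234 (Aanat), and from 0.000109 to 0.900 over its 16 alternatives. With the ages fixed all 12 passed, at 0.000109 (Tubb2b) to 0.00252 (Rps16), and from 1.49e-05 to 0.0412 over that fit's 18 alternatives.

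**Figure D1:**
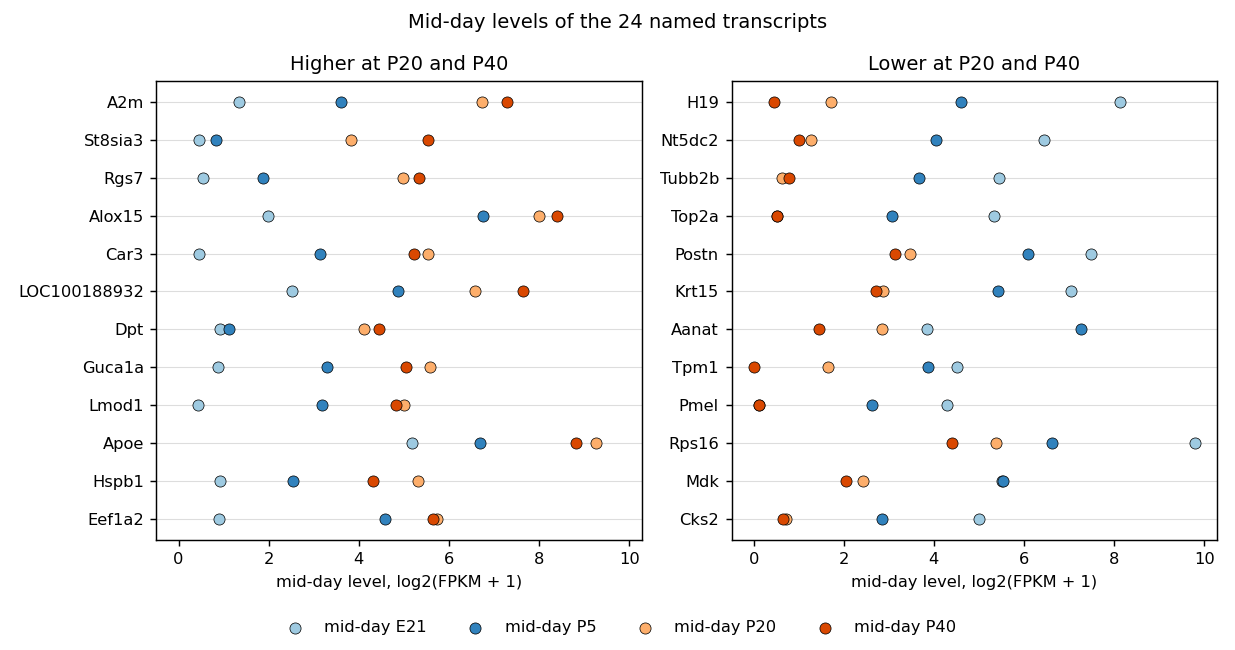
Mid-day levels, as log2(FPKM + 1), of the 12 largest gains (left) and 12 largest losses (right) among transcripts with at least 5 FPKM in both libraries of the higher stage, 1 point for each of the 4 mid-day libraries. The older libraries lie to the right of both younger ones in every gain and to the left in every loss, and Aanat is the loss whose P5 level is above E21 by 3.41.

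At mid-day, phototransduction transcripts were mostly higher in older glands than at E21, by a step taken between E21 and P5. Of 35 tested members, 19 passed with the ages fixed as higher and 5 as lower, against 10.7% and 18.2% of all transcripts, and 6 were 2-fold higher. Their median change was 0.82, beside -0.12 for all transcripts. In 30 of the 35, E21 was the lowest of the 4 mid-day libraries, against 2903 of all 9960 transcripts. P5 was the highest in 14, against 1753 of all, and P40 was below P20 in 27, against 5019. Both older libraries were above both younger ones in 13 of the 35, against 2087 of all. The median step was 1.84 from E21 to P5, 0.00 from P5 to P20 and -0.18 from P20 to P40. Accordingly the median change was -0.07 without the E21 library and 1.83 without P5. Gngt2, the gamma subunit of cone transducin, read 48.9, 337, 698 and 1045, a change of 2.72 (SE 1.08). Prph2, which shapes the rim of photoreceptor discs, read 24.5, 200, 248 and 173. Pdc, phosducin, which binds the beta and gamma subunits of transducin, read 32.7, 120, 291 and 284. In each of these 3 genes E21 was the lowest library. Impdh1, Abca4, Rcvrn and Gnat1 were among those that passed with the ages fixed as lower, and all but Impdh1 stayed under 5 FPKM at mid-day. Arr3, cone arrestin, was close to 0 at E21 and P5 (0.0391 and 0.0680) and read 3.06 and 3.77 later.

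Crx and Otx2 are homeodomain factors of pinealocytes and photoreceptors that bind the core letters TAATCC. Promoters from RefSeq (build GRCr8) were available for 8007 of 9741 tested genes and for 26 of the 35 members. Within 250 bases upstream of the start, 9 of the 26 (34.6%) held TAATCC on either strand (GGATTA on the other), against 4.96% of tested genes and 6.33% of all 27457 promoters. A match is a run of letters and not a shown binding site. The 9 include Abca4, which passed with the ages fixed as lower, and Aipl1, Gngt1 and Pde6a, whose stretches are not shown. The following stretches are shown because these genes carry the daytime gain or are abundant in the gland, with the core in capitals, read in the direction of the gene: Guca1a at chr9:21086496-21086581 (plus strand), Prph2 at chr9:21579162-21579247 (minus strand), Rbp3 at chr16:9273644-9273729 (plus strand), Opn1sw at chr4:58945886-58945971 (minus strand) and Cngb1 at chr19:9732544-9732645 (plus strand).
Guca1a: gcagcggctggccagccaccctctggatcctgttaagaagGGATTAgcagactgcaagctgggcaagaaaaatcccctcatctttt
Prph2: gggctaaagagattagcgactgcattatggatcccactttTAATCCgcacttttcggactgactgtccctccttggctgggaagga
Rbp3: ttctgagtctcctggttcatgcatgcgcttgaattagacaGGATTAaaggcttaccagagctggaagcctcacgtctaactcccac
Opn1sw: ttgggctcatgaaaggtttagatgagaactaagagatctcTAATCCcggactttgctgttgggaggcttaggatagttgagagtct
Cngb1: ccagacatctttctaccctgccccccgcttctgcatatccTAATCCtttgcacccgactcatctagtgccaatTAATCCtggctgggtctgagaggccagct
Cngb1, a subunit of the cyclic nucleotide-gated channel, held the core at 2 places and read 3.69, 22.1, 37.0 and 23.8. Opn1sw, the short-wave cone opsin, read 2.43, 20.3, 23.8 and 28.4. Rbp3, a retinoid carrier, read 80.8, 334, 270 and 214. P20 and P40 lay between E21 and P5, and its change of 0.54 (SE 0.79) did not pass with the ages fixed.

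Of the factors themselves, Crx was higher at P5 than at E21, as most phototransduction genes were, and Otx2 was lower. A link between their levels and those genes was not tested. Otx2 read 274, 173, 135 and 134 at mid-day, and Crx 116, 152, 104 and 106. Both older libraries were below both younger ones in each, by changes of -0.69 (SE 0.50) and -0.34 (SE 0.40) that did not pass with the ages fixed. Of 16 pineal transcription factors tested, 3 passed as higher and 6 as lower with the ages fixed, against 10.7% and 18.2% of all transcripts, and the median change was -0.57 (-0.28 without E21, -0.90 without P5). Lhx4, a LIM homeodomain factor, read 41.1, 107, 113 and 134. Isl2, another, read 18.6, 24.3, 35.3 and 65.3. Id2, an inhibitor of helix-loop-helix factors, read 77.9, 12, 7.17 and 13.7. Lhx9 was the member at least 2-fold lower, at 27.7, 4.88, 0.501 and 0.675, and Bhlhe22 (5.64, 0.363, 0.0982 and 0.101) and Nrl (2.74, 0.851, 0.148 and 0.132) were also near 0 in the older glands. These 3 were picked out after their values were seen. Pax4, a paired homeodomain factor, went the other way at 1.32, 10.2, 22.6 and 18.

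In the melatonin pathway the enzymes did not move as one. Of 13 genes, all tested, 5 passed with the ages fixed as higher (Asmt, Ddc, Pcbd1, Gch1 and Maob) and 3 as lower (Aanat, Mat2a and Maoa). Of all transcripts 10.7% passed as higher and 18.2% as lower, and the list's share lower is near that. The median change was 0.30, and it was -0.17 without E21, 0.69 without P5, 0.07 without P20 and 0.53 without P40. Asmt read 0.432, 106, 204 and 123, a change of 3.68 (SE 1.89). Its E21 level was near 0, and the older libraries lay above both younger ones. Tph1 read 370, 2316, 2350 and 2756, so P5, P20 and P40 were alike and its change of 1.46 (SE 1.94) did not pass. Ddc, which makes serotonin from its precursor, read 17.1, 159, 131 and 100.2, with both older levels between the younger ones. Gch1, which starts the synthesis of the hydroxylase cofactor, read 7.22, 46.9, 77.4 and 98.7. Maob, a monoamine oxidase, read 4.18, 8.41, 22.0 and 20.1 and was the gain of at least 2-fold in the list, while Maoa read 8.21, 2.46, 1.86 and 2.30. Mat2a, which makes the methyl donor for Asmt, read 9.37, 25.4, 9.22 and 8.09. Of the others, Pcbd1 (17.5, 57.5, 64.4 and 55.2) recycles the cofactor, Slc7a5 (7.77, 23.3, 16.4 and 10.5) is an amino acid transporter, and Qdpr, Pts and Spr had changes from -0.32 to 0.30. Aanat is taken up with the night-driven genes below.

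Transcripts of the secretory machinery were higher in the older mid-day gland, again from a base laid by P5. Among 31 synaptic vesicle and exocytosis genes, 14 passed with the ages fixed as higher and 1 as lower, against 10.7% and 18.2% of all transcripts. Their median change was 0.56 (0.22 without E21, 1.0 without P5). Syp, synaptophysin of the vesicle membrane, read 81.6, 297, 508 and 714, a change of 1.94 (SE 0.86). Slc17a7, a vesicular glutamate transporter, read 24.4, 271, 309 and 276. Slc17a6, the other abundant glutamate transporter, was the one that passed as lower, at 99.7, 60.8, 20.2 and 17.5. Its mid-night levels at P20 and P40 were 57.7 and 98.7. For granins and prohormone processing, 7 of 9 genes passed as higher and 1 as lower, against the same 10.7% and 18.2%. Their median change was 1.58, which was 0.29 without E21 and 3.33 without P5. Chga (chromogranin A) read 14.3, 312, 218 and 195. Its older levels thus lay between the younger ones, and the difference comes from E21. Chgb read 8.86, 81.5, 90.8 and 107, Scg2 read 2.21, 21.5, 21.3 and 58.7, and Pcsk1n, an inhibitor of a prohormone convertase, read 0.606, 2.99, 12.6 and 20.6. The convertase Pcsk2 was the loss, at 23.4, 1.65, 0.108 and 0.0862.

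Voltage-gated ion channels showed a like picture. With the ages fixed 13 of 23 passed as higher and 3 as lower, against 10.7% and 18.2% of all transcripts. Their median change was 0.71, and 0.31 without E21. The potassium channel Kcnh6 read 23.2, 69.2, 94.2 and 78.1. Hcn2, a channel opened by hyperpolarization, read 10.4, 59.2, 101 and 73.7. Cacna1f, the calcium channel of photoreceptor terminals, read 12.4, 46.3, 67.3 and 57.9. The T-type channel Cacna1h stood out among them, at 0.309 and 0.628 in the younger and 5.76 and 13.0 in the older glands.

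Cell-cycle transcripts were lower in the older mid-day glands almost throughout. Of 38 tested, 34 passed with the ages fixed as lower and 0 as higher, against 18.2% and 10.7% of all transcripts, and 18 were at least 2-fold lower. E21 was the highest of the 4 mid-day libraries in all 38, against 4499 of all 9960 transcripts. The median change was -1.71, from median steps of -1.32 between E21 and P5 and -1.07 between P5 and P20, and 0.06 between P20 and P40. Summed over the list, levels were 641.4, 232.5, 117.1 and 122.8 FPKM. Ccnd2, a cyclin of early G1, read 59.7, 46.1, 27.9 and 35.8, and Pcna, the replication clamp, read 31.6, 17.8, 9.01 and 6.19. Genes of mitosis reached lower levels. Cdk1, the mitotic kinase, read 29.3, 7.22, 1.06 and 0.593, and Ccnb1, its cyclin, read 18.5, 5.05, 1.2 and 0.713. Cdc20, which activates the ligase that ends mitosis, read 13.8, 5.05, 0.797 and 0.468. Promoters of dividing-cell genes often carry CCAAT boxes, bound by NF-Y, and the letters TTTGAA known as the CHR. Of 28 members with a promoter, 20 (71.4%) held CCAAT on either strand, against 36.2% of tested genes and 34.3% of all promoters. The CHR was found on either strand in 9 of the 28 (32.1%), against 9.79% of tested genes and 16% of all promoters. Neither motif's letters contain the other's. The stretches of Cdc20 at chr5:137255800-137255925 (minus strand), Ccnb1 at chr2:33655231-33655347 (minus strand) and Plk1 at chr1:186147580-186147657 (plus strand) (GRCr8) are shown as examples of mitotic genes, with CCAAT in capitals.
Cdc20: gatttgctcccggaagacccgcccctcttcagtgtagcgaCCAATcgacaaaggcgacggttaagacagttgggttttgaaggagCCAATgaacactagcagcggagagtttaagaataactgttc
Ccnb1: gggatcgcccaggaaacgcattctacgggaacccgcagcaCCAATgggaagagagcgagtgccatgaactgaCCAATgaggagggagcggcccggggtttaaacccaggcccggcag
Plk1: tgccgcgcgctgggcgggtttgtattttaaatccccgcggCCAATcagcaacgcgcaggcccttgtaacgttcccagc
Plk1, a mitotic kinase, read 9.58, 2.61, 0.478 and 0.455.

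Immature-neuron and fetal-growth transcripts were lower as well. Of 19 genes for immature neurons and neurite growth, 15 passed with the ages fixed as lower and 1, Stmn3, as higher. Of all transcripts 18.2% passed as lower and 10.7% as higher. In the list 7 were at least 2-fold lower, and the median change was -1.51 (-0.92 without E21). Tubb5, a beta-tubulin, read 385, 202, 91.4 and 99.0. Cd24, a surface glycoprotein, read 234, 187, 45.0 and 13.9. Nnat, neuronatin, read 104, 38, 22.2 and 17.4. All were lower at both older ages than at P5. Dcx, the doublecortin of migrating neurons, read 18.2, 6.63, 0.883 and 0.821. Among 9 oncofetal and imprinted genes, 6 passed as lower and 0 as higher, against 18.2% and 10.7% of all transcripts. Their median change was -1.25 (-0.73 without E21). E21 was the highest mid-day library in all 9, against 4499 of all 9960 transcripts. Igf2, the fetal growth factor, read 119, 72.1, 21.2 and 6.47. Grb10, an adaptor that restrains growth signals, read 68.7, 26.0, 19.5 and 20.2. Ndn did not share this, at 28.0, 25.8, 26.4 and 23.6.

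Matrix and fibroblast transcripts passed with the ages fixed as lower in 15 of 22 and higher in 1 (Pdgfra), against 18.2% and 10.7% of all transcripts. In this list 10 were at least 2-fold lower, and the median change was -1.25. Fibrillar collagens led: Col3a1 read 190, 140, 47.7 and 41.3, Col1a2 read 226, 108, 47.1 and 34.3, and Col1a1 read 174, 82.8, 28.0 and 21.6. Unlike the cell-cycle genes, this group had its larger median step after P5, -1.02 to P20, against -0.42 before. Postn, above, had the largest change of the list.

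Antigen presentation and interferon transcripts were higher in the older glands and highest at P40. With the ages fixed, 21 of 29 passed as higher and 0 as lower, against 10.7% and 18.2% of all transcripts, and 6 were at least 2-fold higher. P40 was above P20 in 26 of the 29, against 4921 of all 9960 transcripts. The median change of 1.08 was 0.46 without the P40 library and 1.54 without P20. B2m, the small subunit shared by class I molecules, read 62.6, 75.9, 104 and 150.4. Cd74, which chaperones class II molecules, read 0.701, 1.74, 10.5 and 19.1, a change of 2.82 (SE 0.38). Irf7, a factor of the interferon response, read 0.573, 2.63, 6.24 and 19.8. The class II genes RT1-Da, RT1-Ba, RT1-Db1 and RT1-Bb were all at least 2-fold higher, RT1-Da at 0.255, 0.836, 4.01 and 7.81. Mx2, an antiviral gene induced by interferon, read 0.0987, 0.0536, 1.10 and 17.7. Microglia and macrophage markers were tested for 9 genes and summed to 33.0, 21.9, 36.6 and 48.7 FPKM. Csf1r, a defining receptor of these cells, read 3.37, 8.04, 11.5 and 8.5. What part they had in these values was not tested.

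Other pathways were mixed, and their counts are to be read against the 10.7% of all transcripts that passed as higher and the 18.2% as lower. Of 49 oxidative phosphorylation genes, 7 passed with the ages fixed as higher and 5 as lower, shares near that background, with a median change of 0.19 (-0.03 without E21). Cox6c read 38.1, 346, 810 and 473, Ndufa4 read 62.8, 318, 475 and 652, and Cox8a read 35.8, 324, 446 and 297, all subunits whose E21 mid-night levels were 165, 202 and 60.9, above those at mid-day. Cholesterol synthesis had 1 of 19 higher (Tm7sf2) and 6 lower. Srebf2, a transcriptional regulator of the pathway, read 14.1, 9.08, 7.49 and 7.21. In the thyroid hormone list 3 of 9 passed as higher and 1 as lower. Klf9, a thyroid-responsive factor, read 10.1, 14.5, 22.6 and 19.9, and Hr, the corepressor hairless, read 5.22, 55.7, 71.8 and 33.0. Adrenergic and cyclic AMP signalling had 6 of 27 higher and 6 lower. Adcy2, an adenylyl cyclase, read 29.0, 45.3, 75.4 and 55.1, while Adra1b, the alpha-1B receptor, read 27.4, 43.2, 22.6 and 14.0. Prkar1a, a regulatory subunit of protein kinase A, read 30.4, 44.9, 23.7 and 25.2. The beta-1 receptor Adrb1 read 10.9, 18.6, 19.4 and 26.7. Of 16 clock genes, 2 passed as higher and 3 as lower. Nr1d1, a repressor of the clock, read 5.42, 20.6, 25.4 and 26.8, its activating counterpart Rora 4.84, 7.71, 9.31 and 10.2, and Per1, in the core loop, 5.24, 7.06, 2.92 and 2.26. Among 12 immediate early genes, 1 passed as higher (Fos) and 4 as lower. Btg2, an antiproliferative gene, read 41.1, 25.5, 10.8 and 6.51 and was the one at least 2-fold lower. For cholesterol and thyroid genes the median changes of -0.29 and -0.10 read -0.17 and 0.12 after quantile normalization.

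**Figure D2:**
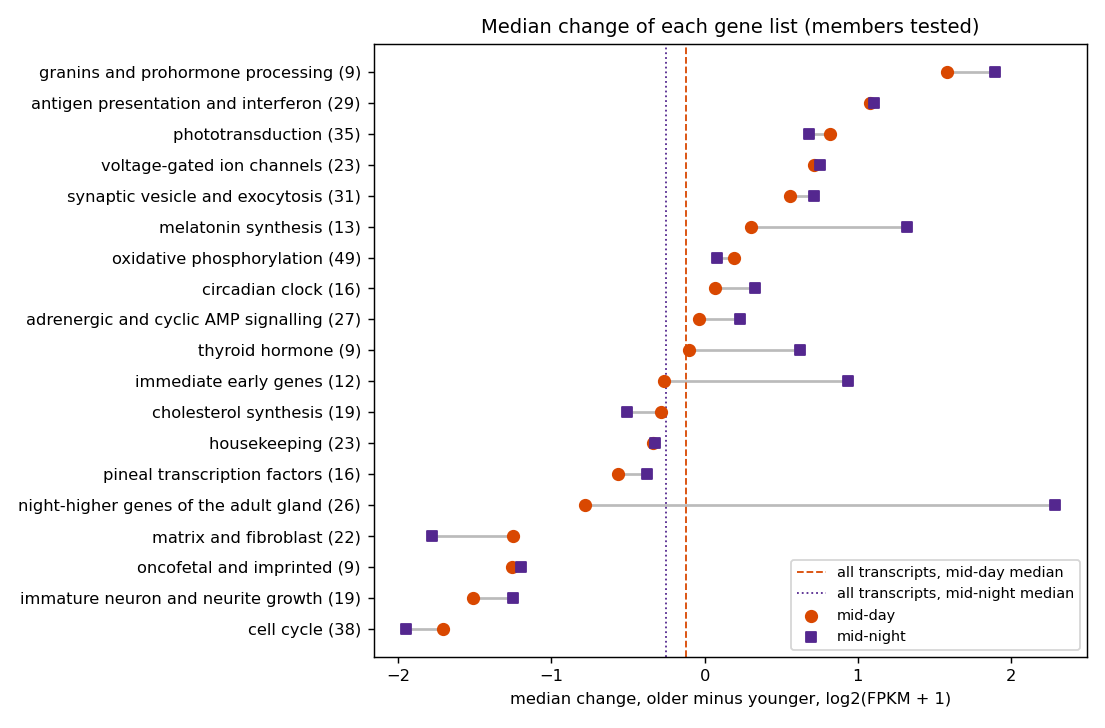
Median change with age, in log2(FPKM + 1), of each gene list at mid-day (circles) and mid-night (squares), with the medians of all tested transcripts as a dashed (mid-day) and a dotted (mid-night) line. Cell cycle (-1.71 at mid-day) and granins (1.58) mark the ends at mid-day, and the night-higher genes, a list chosen for its night levels, read -0.78 at mid-day and 2.29 at mid-night.

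Among markers of other cell types, endothelial and choroid plexus markers were mostly lower in the older glands. The counts stand beside 10.7% of all transcripts higher and 18.2% lower, and that of the erythroid markers is near it. Of 9 endothelial markers 7 passed with the ages fixed as lower, and their sum read 65.6, 48.9, 29.1 and 29.0 FPKM. Emcn read 14.0, 8.24, 5.52 and 4.86, Plvap 9.53, 7.89, 4.76 and 5.03, and Cdh5 9.62, 6.71, 3.31 and 3.76, while Cldn5 and Slco1a4 were listed at 0 in all 4 mid-day libraries. Smooth muscle and pericyte markers had 3 of 6 lower, with sums of 44.4, 51.8, 24.8 and 35.0. Choroid plexus markers peaked at P5 in 12 of 14 genes at mid-day, against 1753 of all 9960 transcripts. Of the 14, 9 passed as lower and 1 (F5) as higher. Their sum read 1383, 3365, 685 and 747 at mid-day and 18600 in the P5 mid-night library. Aqp1, a water channel, read 33.8, 44.5, 8.26 and 11.1, and Igfbp2 13.9, 26.2, 3.98 and 2.11. The list's median of -1.47 was -0.49 without P5 and -2.19 without E21. Astrocyte and interstitial glia markers had 4 of 9 higher and 2 lower: Apoe is given above, S100b read 3.42, 16.1, 19.6 and 18.5, Gfap 0.146, 0.898, 3.83 and 2.96, and Vim 157, 93.8, 50.5 and 47.0. Microglia and macrophage markers had 2 of 9 higher (C1qa at 3.86, 2.28, 7.13 and 13.7, and Tyrobp) and 1 lower (Mrc1). Oligodendrocyte markers had 3 of 7 higher and 0 lower, with Mag and Mobp under 1 FPKM. Schwann cell markers had 2 of 5 each way. Of brain-neuron markers 4 of 14 were tested, 1 higher and 3 lower, with Tac2 and Chat listed at 0. Mast cell markers had 4 of 6 lower, with Mcpt1 listed at 0 and Cpa3 at 2.32, 0.595, 0 and 0. Ependymal markers had 2 of 4 lower, and skeletal muscle markers 1 of 2, with Tnni2 listed at 0. Erythroid markers, mostly haemoglobin, summed to 12280, 2289, 4864 and 1360, with 1 of 6 lower. Of 23 housekeeping genes 1 passed as higher and 6 as lower, with a median change of -0.34. The part these cells had in the matrix, immune and other gene lists was not tested.

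Some transcripts changed with age differently by day and by night, most of them with the mid-day change below the mid-night change. In the test of the difference (limma on all 8 libraries, age as block), 61 transcripts (0.612%) had a mid-day change below their mid-night change and 14 (0.141%) one above it, at adjusted p under 0.05. With the medians of the libraries set equal, the split was 95 and 9. No transcript was called in either direction without the filter on low levels or without age as a block (0 and 0 in each). The number below was 5 without either E21 library, 7 without either P5 library, 25 without the P40 mid-day library and 24 without the P40 mid-night one, and that above to between 1 and 4 without any 1 library. Among the 61, the mid-day change had a median of -0.34 and the mid-night change one of 2.16. In 60 the mid-day level was below the mid-night level at both P20 and P40. Their median mid-day minus mid-night level at the younger ages was -0.15, so the choice of the 61 largely set that direction. At mid-day alone, older libraries lay below both younger ones in 21, above both in 7 and overlapped in 33, and over all transcripts 36.1% lay below and 21.0% above, so a lower daytime level is no mark of the 61. In 46 of the 61, both older mid-day libraries were below P5 mid-day. That pattern was not counted over all transcripts, so it cannot be read as a trait of the 61. For comparison, 41 of the 100 transcripts at least 2-fold higher at mid-day were also so at mid-night (41.0% of them, and 28.7% of the 143 at mid-night, 1.44% of all tested). Of the 213 at least 2-fold lower, 155 were (72.8%, and 34.8% of the 446 at mid-night, 4.48% of all). By any amount, 93 of the 100 and 210 of the 213 changed in the same direction at mid-night. Such agreement was not counted over all transcripts, and these lists were chosen for large changes, so it is no trait of them. Of the 100, 5 passed the test of the difference, all with the mid-day change above the mid-night one. Of the 213, 4 passed, all with it below. Over all transcripts 0.141% and 0.612% passed in those directions, which a choice by large mid-day changes favours. Across all tested transcripts the mid-day and mid-night changes had a Pearson r of 0.77. The mid-night test on 4 libraries called 2 transcripts higher (0.0201%) and 3 lower (0.0301%).

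**Figure D3:**
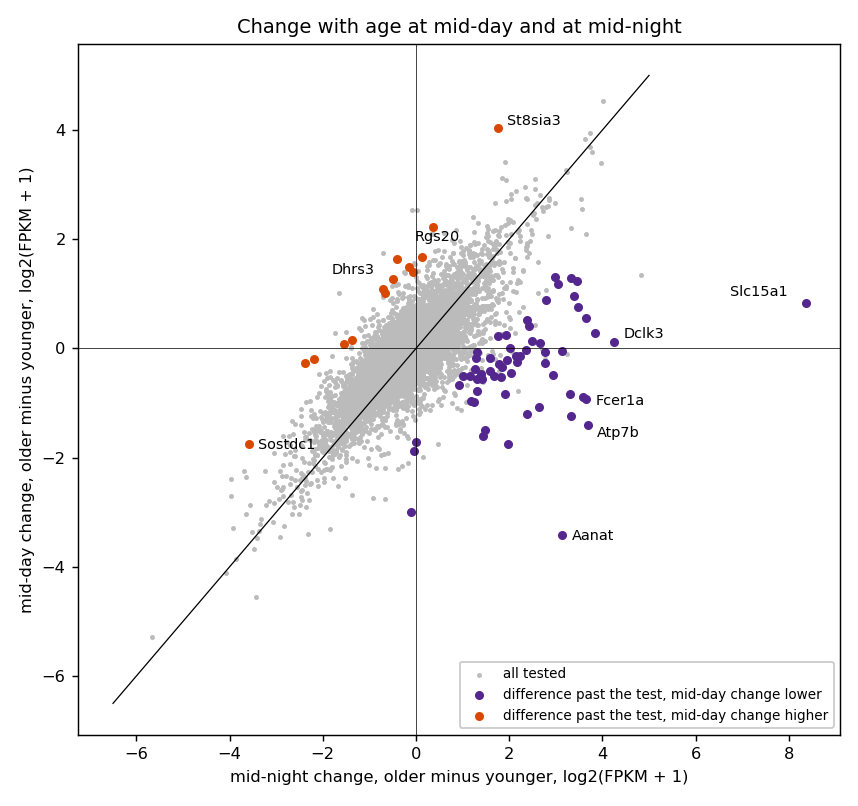
Change with age at mid-day (vertical) against mid-night (horizontal), in log2(FPKM + 1), for the 9960 tested transcripts, with those past the test of the difference in purple (61, mid-day change lower) and orange (14, higher). Slc15a1 lies farthest from the line of equal change, at 0.83 against 8.36, and Aanat at -3.41 against 3.14.

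Aanat and other night-driven genes make up the largest of these differences. Slc15a1, an oligopeptide transporter whose pineal form is a night transcript (chr15:106550095-106552536 in rn4), read 0, 0, 1.61 and 0.216 at mid-day and 0, 1.50, 366 and 736 at mid-night, a difference of -7.53 (SE 0.67, adjusted p = 0.00542). Aanat (chr10:106709370-106713683) read 13.5, 153, 6.21 and 1.72 at mid-day and 9.45, 225, 572 and 321 at mid-night, a difference of -6.56 (SE 0.39, adjusted p = 0.00208). In the older glands both were far lower by day than by night. Atp7b, a copper transporter, read 1.59, 10.4, 1.41 and 0.753 at mid-day and 125 and 85.0 at P20 and P40 mid-night, a difference of -5.09 (SE 0.45). Fcer1a, a chain of the IgE receptor, read 0.907, 52.7, 7.57 and 2.28 at mid-day and 166 and 104 at P20 and P40 mid-night. Sik1, a kinase induced by cyclic AMP, read 2.17, 6.33, 1.07 and 1.03 against 33.7 and 61.8. In these 3, as in Aanat, P5 was the highest mid-day library. Dusp1, a phosphatase of MAP kinases, read 1.86, 9.41, 2.48 and 1.50 against 47.4 and 102. Irs2, an adaptor of the insulin receptor, read 2.67, 6.18, 2.38 and 1.44 against 43.9 and 79.0. Dclk3, a doublecortin-like kinase, read 0.240, 5.10, 1.70 and 2.30 against 56.4 and 81.1. For Atp7b, Fcer1a, Sik1, Dusp1, Irs2 and Dclk3 the adjusted p of the difference lay between 0.00208 and 0.0118. Over 18 alternatives these 8 genes passed in 10 (Slc15a1) to 16 (Aanat, Atp7b, Fcer1a and Dclk3), and the highest adjusted p was 0.998.

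The 26 night-higher genes of the adult gland, a list drawn up with earlier results of these data known, had a median change of -0.78 at mid-day, against 2.29 at mid-night. By day 14 passed with the ages fixed as lower and 2 as higher (Pde4b and Kcne2), against 18.2% and 10.7% of all, and 1 (Aanat) was at least 2-fold lower. P5 was the highest of the 4 mid-day libraries in 18 of the 26, against 1753 of all 9960 transcripts. The list's median steps were 0.97 from E21 to P5 and -1.11 from P5 to P20. Its mid-day median was -0.25 without P5. Of the 26, 16 passed the test of the difference as lower at mid-day and 0 as higher, against 0.612% and 0.141% of all. Since the genes were chosen for higher levels at night, that direction was set beforehand and is given as a description. Beyond those above the 16 were Ptch1, the hedgehog receptor (8.32, 34.4, 7.30 and 7.96 at mid-day), Drd4, a dopamine receptor (1.2, 32.1, 2.79 and 1.07), Nr4a1, an orphan nuclear receptor (2.82, 13.1, 2.56 and 1.85), and Camk1g, a calmodulin-dependent kinase (18.7, 19.8, 12.8 and 8.40). In Ptch1, Drd4 and Nr4a1 the older daytime levels were back near that of E21. Also among them were Mat2a, the early growth response gene Egr1 (4.26, 8.96, 3.26 and 4.73) and the cyclic AMP factor Crem (4.53, 6.63, 3.52 and 3.79). The phosphodiesterases Pde4b (0.918, 8.74, 7.18 and 7.54) and Pde10a (1.41, 4.95, 1.73 and 3.98) were among them too. Both phosphodiesterases break down cyclic nucleotides.

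The other 10 of the list did not pass the test of the difference. Rgs2 read 4.45, 3.73, 1.15 and 3.05 at mid-day, Per1 is given above, and Dio2, the enzyme that activates thyroid hormone, stayed at 0.444 or less at mid-day while its P20 and P40 mid-night levels were 4.87 and 31.0. Their differences were -2.98, -2.05 and -3.35, at adjusted p of 0.0606, 0.0727 and 0.0939. Junb read 0.916, 2.75, 3.56 and 2.90, and Mapk6, an atypical MAP kinase, 62.0, 65.1, 36.1 and 38.7. Mapk6 was among the most abundant of the list at mid-day. Id1 read 16.9, 20.4, 8.44 and 5.68, Cited2 read 13.3, 10.3, 8.34 and 8.03, and Ppp1r3c, which targets a phosphatase to glycogen, 4.89, 3.79, 2.40 and 2.19. Kcne2, a potassium channel subunit (18.2, 51.0, 57.2 and 46.8), and Zfp36l1, an RNA-binding protein (55.4, 29.4, 37.8 and 41.7), were higher at mid-day than mid-night at both older ages, as was Ppp1r3c (mid-night 2.22 at P20 and 0.970 at P40).

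Cyclic AMP acts on many promoters through the cyclic AMP response element, TGACGTCA, which reads the same on both strands. It was found within 250 bases upstream in 2 of 49 genes with a difference lower at mid-day (4.08%), against 3.16% of tested genes and 1.70% of all promoters, so the share was near that of tested genes. Those 2 genes were Dusp1 at chr10:17184689-17184776 (plus strand) and Rcan1 at chr11:45118396-45118483 (minus strand) (GRCr8), shown with the element in capitals as the members that hold it.
Dusp1: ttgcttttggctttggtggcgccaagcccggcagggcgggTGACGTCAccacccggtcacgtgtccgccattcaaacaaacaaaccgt
Rcan1: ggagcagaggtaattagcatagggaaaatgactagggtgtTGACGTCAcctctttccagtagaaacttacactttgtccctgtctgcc
Rcan1, a regulator of calcineurin, read 8.48, 13.0, 11.6 and 11.8 at mid-day and 9.0, 15.3, 50.3 and 100.3 at mid-night.

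**Figure D4:**
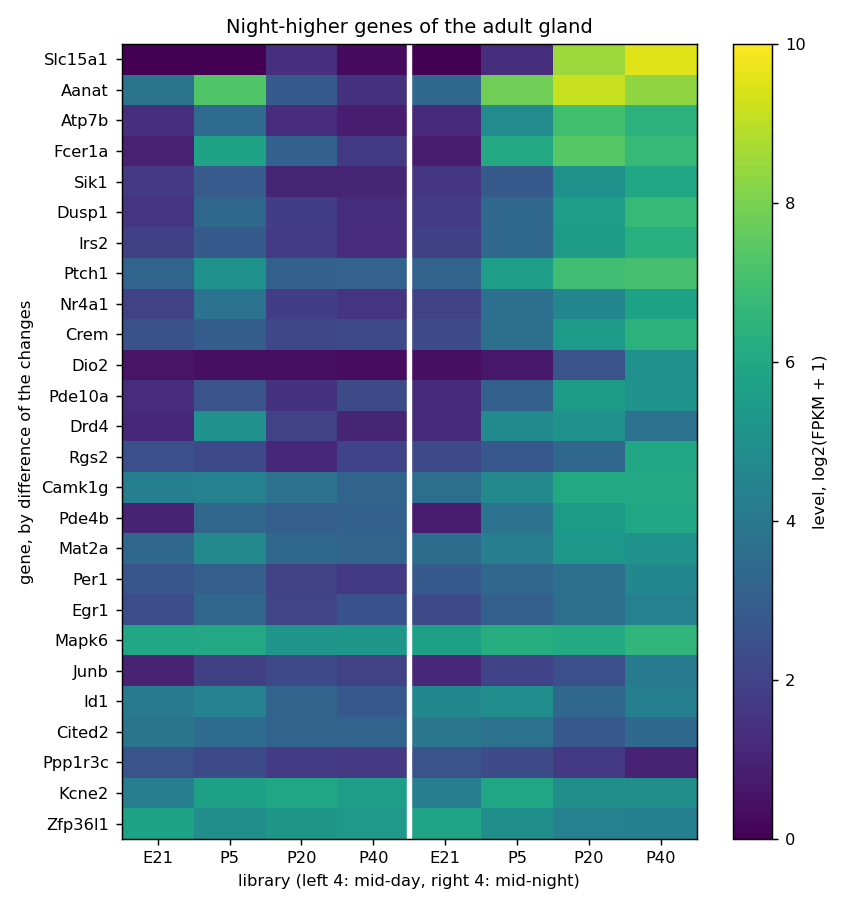
Levels, as log2(FPKM + 1), of the 26 night-higher genes (rows) in the 4 mid-day and 4 mid-night libraries (columns). At mid-day the P5 column is the highest of the 4 in 18 of 26 rows, against 1753 of all 9960 transcripts. P20 and P40 are brightest (highest) at mid-night for genes such as Slc15a1, Aanat and Fcer1a.

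The 14 transcripts whose mid-day change exceeded their mid-night change had medians of 1.18 at mid-day and -0.58 at mid-night. In 13 the mid-day level was above the mid-night level at both older ages. Their median mid-day minus mid-night level at the younger ages was -0.19, so the choice of the 14 largely set that direction. St8sia3 read 13.1 and 45.1 at P20 and P40 mid-day against 0.888 and 11 at mid-night, a difference of 2.28 (SE 0.34, adjusted p = 0.0355). Vof16, described in the deposited table as an ischemia related factor, read 21.0, 28.3, 50.2 and 56.1 at mid-day against 19.5, 18.8, 12.3 and 10.4. Rgs20, a brake on G protein signalling, read 2.57, 8.24, 13.6 and 22.0 against 3.15 and 5.15 at the older mid-nights. These 3, and Dhrs3, a retinal reductase (4.49, 4.83, 11.1 and 14.2), were higher in both older mid-day libraries than in both younger ones. Hs3st2, a heparan sulfate sulfotransferase, read 43.9, 13.3, 11.1 and 35.4 at mid-day and 0.717 and 9.10 at P20 and P40 mid-night. Ptpn21, a tyrosine phosphatase, read 25.4, 9.01, 12.3 and 14.1, and Tle1, a corepressor, 11.9, 6.59, 9.47 and 9.36. Here the mid-day levels overlapped between the ages, and the mid-night levels were lower in the older glands. Sostdc1 is also a choroid plexus marker and read 0.394, 14.8, 0.203 and 0.638 at mid-day with 65.7 in the P5 mid-night library. The part of choroid plexus in that difference was not tested. The differences of these 8 genes ranged from 1.55 to 2.28, at adjusted p from 0.0254 to 0.0474. They passed in 3 (Tle1) to 9 (St8sia3 and Hs3st2) of 18 alternatives, with adjusted p up to 0.998.

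A strict on or off pattern was rare at mid-day. Under 1 FPKM in both younger libraries and at 5 or more in both older ones were 5 transcripts, and the reverse held for 10. Besides St8sia3 and Cacna1h, the 5 were Cyp27a1, a sterol hydroxylase (0.308, 0.831, 6.98 and 12.2), Chi3l1, a chitinase-like protein (0.249, 0.562, 7.02 and 5.34), and Ano1, a calcium-activated chloride channel (0.363, 0.886, 5.16 and 7.04). Those that left included Tubb2b, Top2a, Cks2, Dcx, Pmel and Cdc20, given above, Prom1, a membrane protein of progenitor cells (23.4, 5.81, 0.951 and 0.865), and Crabp1, which binds retinoic acid (5.57, 10.0, 0.292 and 0.126). The others were Fam3d and St8sia2. St8sia2, a polysialic acid synthase, was off only by day: it read 6.12, 6.39, 0.645 and 0.637 at mid-day but 14.4 and 2.47 at P20 and P40 mid-night. At under 0.5 FPKM against 10 or more, 0 transcripts met the pattern either way. Without the P5 library there were 57 on and 137 off, without P20 15 and 20, and without E21 6 and 22.

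Where P5 stood between E21 and the older ages differed between transcripts. Over the 100 transcripts at least 2-fold higher the median share of the change reached by P5 was 0.306, and over the 213 lower 0.398, with the gap required after P5 built into that choice. Over transcripts called with the ages fixed, these shares were 0.519 and 0.498. Of the 1070 called higher, P40 was beyond P20 in 64.6%, and of the 1814 lower in 60.9%. Over all 9960 transcripts P40 was above P20 in 4921 and below it in 5019. Among the 313 transcripts at least 2-fold apart, the largest steps between E21 and P5 were those of H19 (-3.51), Ube2c (-3.44), Pcsk2 (-3.21) and Rps16 (-3.18) downward and Alox15 (4.76), Eef1a2 (3.68), Aanat (3.41) and Gsta3 (3.16) upward. Gsta3, a glutathione transferase, read 0.277, 10.4, 30.8 and 24.1. Ube2c, a conjugating enzyme of mitotic ubiquitination, read 40.9, 2.86, 0.249 and 0.175 and had 11.4 in the E21 mid-night library. Between P20 and P40 the largest steps were smaller. Bex1 (-1.65), the falling Tpm1 transcript (-1.64), Cd24 (-1.63) and Igf2 (-1.57) were lower at P40, and St8sia3 (1.70), Ptprn2 (1.60), Gda (1.60) and Glycam1 (1.31) higher. Ptprn2, a protein of secretory granules, read 2.12, 6.22, 14.3 and 45.4. Gda, guanine deaminase, read 0.104, 0.711, 3.78 and 13.5. Bex1 read 9.59, 6.17, 2.36 and 0.0717 at mid-day and 9.13 and 2.68 at P20 and P40 mid-night. Its span is under 2 kb, and its E21 mid-night level was 5.10.

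**Figure D5:**
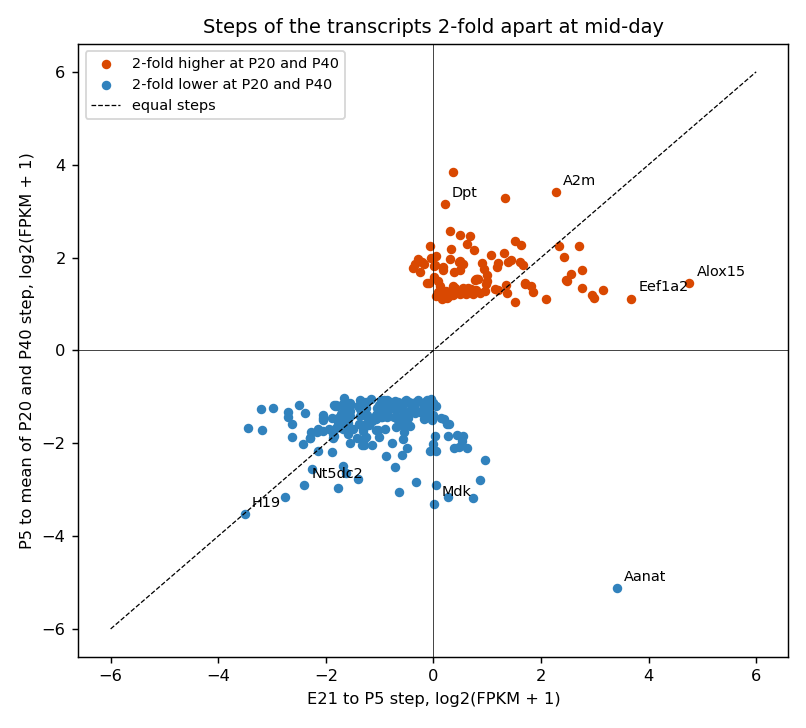
For the 313 transcripts at least 2-fold apart at mid-day, the step from P5 to the mean of P20 and P40 (vertical) against the step from E21 to P5 (horizontal), in log2(FPKM + 1), with the line of equal steps dashed. Alox15 has the largest first step at 4.76, Dpt almost none, and Aanat took a first step of 3.41 upward before its loss.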

How the data were processed

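The deposited values are FPKM per RefSeq transcript in 1 table of the whole series, and 8 of 8 libraries' own files equal it. Per the labels' protocols, RNA of pooled glands was selected by polyA and sequenced from both ends. The submitters' processing notes name TopHat 1.3.1, Cufflinks 1.2.0 and rn4. FPKM are not counts, so fragment numbers were not modelled. Levels were tested as log2(FPKM + 1) with limma 3.58.1 in R 4.3.3 (moderated variance with trend, Benjamini-Hochberg adjustment, threshold 0.05) over the 9960 transcripts at 1 FPKM or more in at least 2 libraries. Tables were made with Python 3.11.15. The fits were tested on simulated data that held no age difference within a stage. That test therefore does not cover the spread between ages that the real groups hold. Each age and time is 1 pool, so p-values measure only the spread between pools. The comparison, gene lists and tests were chosen with earlier results of these data known. The named genes are the 12 largest gains and 12 largest losses with at least 5 FPKM in both libraries of the higher stage, the 3 most abundant members of each list past the test, every melatonin and night-higher gene, the 8 largest differences each way among those past the test with at least 5 FPKM in 2 libraries, the 8 most abundant switches each way and the 4 largest steps each way within a stage, with 1 transcript (the most abundant) for each symbol. Because the planned test called 0 transcripts, the 2-fold rule stood in for it in the gains, losses and steps, and the fit with the ages fixed in the lists. That replacement, and other list members named, were chosen after values were seen. The alternatives were other pseudocounts, filters, scalings, variance settings and designs, and leaving out each library. A few list members are not reported here.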

Additional observations from a re-analysis of the deposited data

Results flagged for a closer look

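The test of the difference itself picked out transcripts whose change with age was not the same at mid-day and mid-night: 61 with the mid-day change lower and 14 with it higher. Among transcripts with at least 5 FPKM in 2 libraries, and with 1 transcript a symbol, the largest differences (mid-day change minus mid-night change, log2(FPKM + 1)) were -7.53 for Slc15a1, -6.56 for Aanat, -5.09 for Atp7b, -4.59 for Fcer1a and -4.57 for Sik1. They were -4.46 for Dusp1 and -4.14 for both Dclk3 and Irs2. In the other direction they were 2.28 for St8sia3, 2.12 for Hs3st2, 1.98 for Ptpn21 and 1.83 for Sostdc1, then 1.80 for Vof16, 1.75 for Dhrs3, 1.62 for Tle1 and 1.55 for Rgs20. No group has 4 libraries, so no library could be tested as an outlier.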

How the results depend on the processing

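The planned mid-day test called 4 higher and 3 lower with all 8 libraries in 4 groups, and 1070 and 1814 with the ages fixed. At mid-night the higher count was 40 with a pseudocount of 0.1, 1 with 5, 0 without a filter, 22 with a filter of 5 FPKM, 4 with quantile normalization and 4 with robust variance. The lower count was 238, 1, 0, 81, 1 and 5 under those settings, 1 with median centring and 1 without transcripts spanning under 2 kb. For the difference, a pseudocount of 0.1 gave 6 higher, 5 gave 4 and 33 lower, no filter 0 and 0, median centring 9 and 95, robust variance 31 higher, and no age block 0 and 0. A filter of 5 FPKM left 1149 lower with the ages fixed. At least 2-fold apart at mid-day were 205 and 533 with a pseudocount of 0.1 and 35 and 40 with 5. At mid-night these were 221 and 1003, then 65 and 80, with 249 and 215 after quantile normalization and 270 and 216 after centring. Stricter switches gave 0 and 0. After quantile normalization list medians were -0.13 for immediate early genes, -0.17 for cholesterol synthesis, 0.12 for thyroid hormone and -0.39 for smooth muscle.

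Leaving out 1 library at a time, the planned test called 0 to 1060 higher and 0 to 1731 lower at mid-day (1060 and 1731 without P5, 37 and 191 without E21) and 0 to 927 and 0 to 1927 at mid-night. The difference counts were 1 to 4 and 5 to 60, and those with the ages fixed 324 to 1013 and 453 to 1756. At least 2-fold apart were 118 to 712 and 272 to 1072 at mid-day and 151 to 734 and 613 to 1226 at mid-night, with 6 to 57 switches on and 10 to 137 off. List medians ranged from -0.94 to -0.25 for night-higher genes, -0.38 to -0.12 for immediate early genes, -0.075 to 0.14 for adrenergic signalling, 0.46 to 1.54 for antigen presentation and 0.22 to 1.0 for synaptic genes. They ranged from 0.29 to 3.33 for granins, 0.31 to 0.87 for channels, -0.19 to 0.12 for thyroid hormone, 0.083 to 0.85 for astrocytes, -0.12 to 0.75 for oligodendrocytes, -0.75 to 0.16 for mast cells and -0.48 to -0.23 for housekeeping genes.

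No paired analysis was possible because the replicate numbers were given in accession order and pair nothing. Age took the place of a block in the test of the difference and in the fit with the ages fixed. For named transcripts 581 values kept their direction and side of the threshold, 89 gained a call, 124 lost one and 0 reversed. The repeats for the fit with the ages fixed and for the 2-fold counts, the 2 kb setting, and lists and switches without a library were chosen after seeing the data. The causes were not tested. Depth in fragments is unknown, which limits low values. By the rough estimate from olfactory receptor transcripts, E21 and P20 were the shallowest of the mid-day libraries.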

Other observations

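These 4 transcripts with a difference between the times were picked after their values were seen. Arntl, an activator of the circadian clock, kept its mid-day level across the ages, at 7.68, 7.20, 8.66 and 8.17 FPKM from E21 to P40. At mid-night it read 8.39, 6.18, 2.49 and 1.84, a difference of 1.54 (SE 0.24, adjusted p = 0.0432 in limma). Cd24 read 45.0 and 13.9 at P20 and P40 mid-day but 301 and 158 at mid-night, so its daytime loss with age was not shared by the night, a difference of -2.90 (SE 0.39, adjusted p = 0.0256 in limma). Etnk1, an ethanolamine kinase, was higher at the older ages at both times, at 32.4, 65.5, 123 and 106 by day and 34.3, 91.1, 571 and 566 by night. Nptx1, a neuronal pentraxin, read 9.47, 52.4, 50.6 and 59.6 by day and 8.39, 48.9, 186 and 303 by night.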
